A study of Drosophila melanogaster with 3 samples.

Results

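The gene corto lies on chromosome arm 3R from 5077779 to 5087072 on the minus strand (dm6), and this account covers the binding sites of tagged Gooseberry-neuro (Gsb-n) around it. The sites are the chromatin immunoprecipitation (ChIP) peaks whose summit lies in the corto gene body or within 40 kb of it, a window of 89.3 kb from 5037779 to 5127072. The IDR list, which the authors thresholded on the irreproducible discovery rate between replicates, held 28 of its 5746 peaks here. A pooled list made from all 3 replicates held 98 of 30000, and the lists of replicates 1, 2 and 3 held 97, 92 and 88 of 30000 each. The window was selected on its number of IDR peaks, seen in earlier results. Its number of peaks and their signal in these 5 lists, which were made from the same libraries, are therefore descriptions with no test.

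The study mapped Gsb-n, fused at its C-terminus to green fluorescent protein (GFP), in embryos of Drosophila melanogaster aged 4 to 14 hours. An antibody to GFP recovered the protein from sonicated chromatin with a labelled size range of 200 to 800 bp. The 3 samples are biological replicates of 1 group from 1 transgenic line, with no second genotype, stage or treatment. Whole embryos were used, and the cells in which a site was occupied are therefore unknown. The promoter that drives the fusion is not given in the sources used here. Control libraries entered the peak calling per the deposited notes, but none is among the samples analysed here. The lists give no read counts, so the depth behind each peak is unknown.

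Corto is a chromodomain protein that acts with both the Polycomb group, which keeps genes silent, and the trithorax group, which keeps them active. It is known to bind proteins of both groups, among them the GAGA factor, and its loss alters segment identity. Gsb-n is a Pax family transcription factor of the embryonic nervous system, with a paired domain and a homeodomain that each contact DNA. Homeodomains favour sites with a TAAT core, and paired-class homeodomains also bind as dimers on a pair of inverted TAAT cores. Paired domains have been tied to sequences with GTTCC or GTCACGC cores.

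The 5 strongest corto sites and the site at the corto promoter are shown with 100 bp on each side of the IDR summit, to show the DNA under the highest peaks and at the gene's start. All are on the plus strand of the RefSeq copy of release 6, the dm6 assembly. Capitals mark matches on either strand to TAATTA, to TAAT and ATTA spaced by 2 or 3 bases (the short and the long dimer), to GTTCC, to GTCACGC and to GAGAG, the core bound by the GAGA factor.
Site 26.2 kb upstream, chr3R:5113170-5113370: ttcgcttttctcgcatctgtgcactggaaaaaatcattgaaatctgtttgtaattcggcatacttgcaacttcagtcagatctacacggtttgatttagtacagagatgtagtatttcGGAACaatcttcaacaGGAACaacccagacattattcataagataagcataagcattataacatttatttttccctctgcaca
Site 9.3 kb upstream, chr3R:5096273-5096473: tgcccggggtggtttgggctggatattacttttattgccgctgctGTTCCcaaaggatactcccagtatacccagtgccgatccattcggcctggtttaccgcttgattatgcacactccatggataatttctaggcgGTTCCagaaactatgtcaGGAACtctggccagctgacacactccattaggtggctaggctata
Site 21.1 kb upstream, chr3R:5108062-5108262: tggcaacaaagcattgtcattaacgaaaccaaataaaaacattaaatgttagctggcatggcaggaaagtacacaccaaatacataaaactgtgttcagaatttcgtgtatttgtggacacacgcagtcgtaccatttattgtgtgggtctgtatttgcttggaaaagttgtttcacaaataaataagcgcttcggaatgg
Site 33.3 kb downstream, chr3R:5053721-5053921: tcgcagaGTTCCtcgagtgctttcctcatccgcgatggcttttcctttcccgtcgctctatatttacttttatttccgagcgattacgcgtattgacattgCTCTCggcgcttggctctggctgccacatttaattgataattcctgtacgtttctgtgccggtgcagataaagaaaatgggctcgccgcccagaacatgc
Site 18.5 kb upstream, chr3R:5105428-5105628: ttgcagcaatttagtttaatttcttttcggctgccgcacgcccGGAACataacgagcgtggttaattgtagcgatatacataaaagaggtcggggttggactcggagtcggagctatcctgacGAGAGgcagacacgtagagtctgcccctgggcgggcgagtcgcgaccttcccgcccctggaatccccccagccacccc
Site at the promoter, chr3R:5087141-5087341: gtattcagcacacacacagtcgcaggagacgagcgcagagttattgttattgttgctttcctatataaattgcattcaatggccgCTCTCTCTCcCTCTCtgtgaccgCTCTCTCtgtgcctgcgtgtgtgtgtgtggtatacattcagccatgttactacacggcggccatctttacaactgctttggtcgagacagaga
Of these 6 windows, 4 held the paired core GTTCC and 3 held GAGAG, while TAATTA, the dimers and GTCACGC were in none. The promoter window held 6 GAGAG matches, some overlapping, all centred within 13 bp of the summit. The window 21.1 kb upstream held no match to any capitalised motif.

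The binding sites around corto lay mostly upstream of the gene, in DNA with few genes. Distances are given from the distal of 2 annotated corto start sites, at 5087072, to the IDR summit, and the proximal start site is at 5086712. Of the 28 IDR sites, 21 were upstream, 2 were in the gene body and 5 were beyond the 3′ end. The pooled list was less one-sided, with 54 peaks upstream, 9 in the gene body and 35 beyond the 3′ end. In the replicate lists the mean was 49 ± 2.65 upstream, 10 ± 3 in the gene body and 33.3 ± 3.06 beyond the 3′ end (SD, n = 3). The IDR list thus kept 38.9% of the pooled peaks upstream, 22.2% in the gene body and 14.3% beyond the 3′ end, against 19.2% of pooled peaks in the whole genome. Each replicate's own 5746 highest peaks leaned the same way. Replicate 1 had 14 of them upstream and 6 beyond the 3′ end, replicate 2 had 21 and 6, and replicate 3 had 19 and 7.

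**Figure D1:**
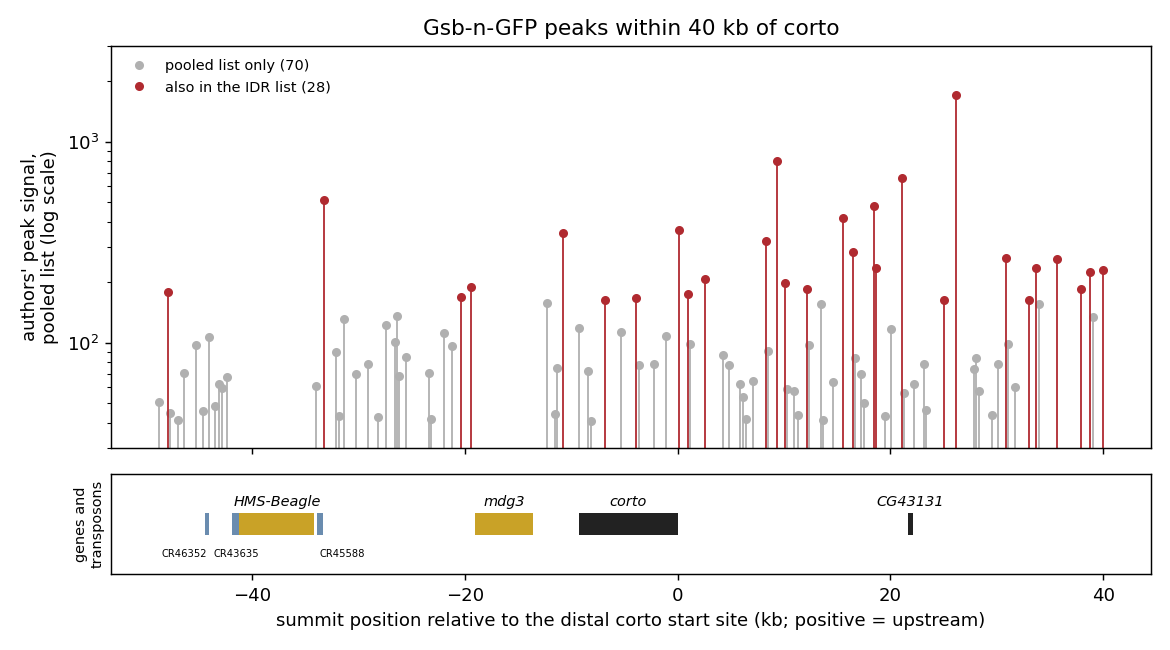
Peak signal in the pooled list (vertical axis, log scale, the authors' units) against the position of each summit relative to the distal corto start site in kb, positive upstream. Red marks the 28 peaks that are also in the IDR list and grey the other 70, with protein-coding genes in black, noncoding genes in blue and transposons over 1 kb in gold below. The strongest peak stands 26.2 kb upstream, and the spans of HMS-Beagle and mdg3 hold no summit.

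The only protein-coding gene in the window besides corto was CG43131, 501 bp long, which lies upstream at 5108678 to 5109178 on the minus strand. Beyond the 3′ end the annotation holds the noncoding genes CR46352, CR43635 and CR45588 and 2 long transposons, HMS-Beagle (7045 bp) and mdg3 (5460 bp). No summit of any of the 5 lists lay in either transposon. Over all arms, annotated transposons cover 5.93% of the sequence but held 0.377% of pooled summits. Whether the fly line carries these 2 insertions, and how reads from repeats were handled, was not tested. They lie on the side with fewer sites.

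Most corto sites were more than 500 bp from any annotated start site, at distances from 989 to 13957 bp. Annotated transcription start sites (TSSs) lay within 500 bp for 2 of 28 summits, against 38.8% of all IDR summits. Of these, 1 was at the corto promoter and the other 83 bp from the start of the noncoding gene CR45588. The 2 sites in the gene body fell in exon sequence, because each of the 5 corto transcripts is annotated as 1 unspliced exon. The remaining 24 were intergenic and none was intronic. Over all IDR peaks, 2.38% were exonic, 38.1% intronic and 20.7% intergenic. Nearest-gene assignment would spread the sites over 4 protein-coding genes. The nearest protein-coding TSS belonged to corto for 12 sites, to CG43131 for 9, to RabGGTa for 6 and to plh for 1.

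The corto window was the densest of its kind, with limits that depend on how windows are drawn. Its 28 IDR peaks were equalled by the windows of 2 other genes, homothorax (hth), which encodes a homeodomain partner of Hox proteins, and pumilio (pum), which encodes a translational repressor,, and exceeded by none of 13945 protein-coding genes, whose median was 4. The hth and pum windows are longer, at 212.0 and 251.3 kb. Per kb, corto had 0.314 IDR peaks, hth 0.132, pum 0.111 and the ecdysone-induced nuclear receptor gene Eip75B, with 17 peaks in 193.7 kb, 0.0877. The mean over the arms was 0.0429 per kb, or 3.83 in a window of this length. No protein-coding gene had a denser window, and the next was CG43131 (0.311 per kb, 25 peaks), whose window overlaps that of corto. When windows of the same length were slid along the arms in 1 kb steps, those that overlap the corto window reached 29 peaks. A stretch of 2L that holds the zinc-finger gene noc also reached 29, a tie by that measure. With 20 kb on each side of each gene, 17 genes held more IDR peaks than the 16 at corto. With 80 kb, 6 genes held more than the 34 at corto.

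**Figure D2:**
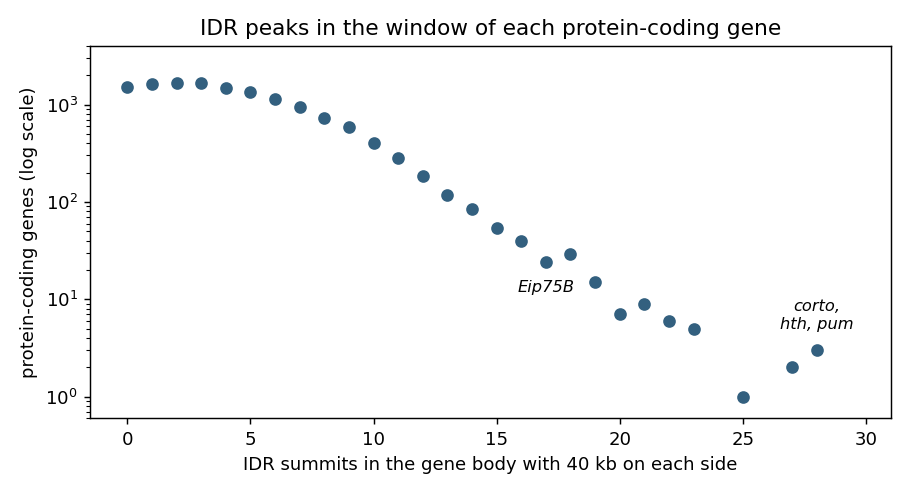
Number of protein-coding genes (vertical axis, log scale) by the number of IDR summits in the gene body with 40 kb on each side. Each point is a count of genes, and corto, hth and pum share the highest value of 28 while the Eip75B window holds 17.

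Per kb, the corto window also held more pooled peaks than the longer windows of hth, pum and Eip75B. The pooled list includes the IDR peaks on which the window was chosen. The place of corto among all gene windows in that list was not computed. The corto window held 1.10 pooled peaks per kb, against 0.783 for hth, 0.402 for pum and 0.557 for Eip75B. The replicate lists are given as counts, not divided by window length. Their mean was 92.3 ± 4.51 peaks (SD, n = 3) at corto, 157.3 ± 18.5 at hth, 107.3 ± 1.15 at pum and 89 ± 2.65 at Eip75B. The share of pooled peaks kept in the IDR list was 28.6% at corto, 16.9% at hth, 27.7% at pum and 15.7% at Eip75B. TSS-proximal peaks were a larger share at pum than at corto. The pum window covers 22 protein-coding genes and 12 of its 28 IDR summits lay that close to a TSS, whereas that of hth covers 3 genes and had 1 such summit.

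Close neighbours are part of the count. In the corto window 37 of 98 pooled peaks (37.8%) had another pooled summit within 250 bp, against 24.9% of all pooled peaks. Among the 28 IDR sites the closest pair was 204 bp apart, the widest gap was 14599 bp and the median gap was 2016 bp. The IDR intervals together cover 10108 bp of the window. The most common width in the IDR list, 416 bp, was that of 20 of 28 corto sites and of 69.4% of all IDR peaks, and the other 8 were narrower, down to 116 bp.

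The strongest site lay 26.2 kb upstream of corto, with its summit at 5113270 and a signal of 1717 in the pooled list. Its rank was 45, 43 and 44 in replicates 1, 2 and 3 (44 ± 1, SD, n = 3) and 44 in the pooled list, where rank 1 is the highest signal. The 3 ranks thus span 2 places. Among the 20 peaks matched in all replicates whose pooled rank lies within 10 of it, the span ranged from 3 to 52 places with a median of 28. The summit is 4092 bp from the start of CG43131, on the far side of that gene from corto. A weak neighbour 25.0 kb upstream (5112121, signal 164) ranked at 12944, 4263 and 4177.

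Next in signal were sites 9.3 and 21.1 kb upstream. The site at 5096373, 9.3 kb upstream, had a signal of 802 and ranks of 567, 218 and 297. It is the strongest site whose nearest protein-coding gene is corto, and its window holds 3 GTTCC matches. The site at 5108162, 21.1 kb upstream and 1016 bp from the start of CG43131, had a signal of 659 and ranks of 509, 500 and 381. Replicate 1 placed both lowest.

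The corto promoter itself carried a site with a signal above the IDR median of 250.3. Its summit at 5087241 lay 169 bp upstream of the distal start site, with a signal of 362 and ranks of 2709, 1059 and 1141. A weaker site 1.0 kb upstream (5088061, signal 176) ranked at 7530 and 3524 in replicates 1 and 2. In replicate 3 the nearest summit to it was 209 bp away, at rank 5139, beyond the 100 bp allowed for a match. The site 2.5 kb upstream (5089621, signal 209) ranked at 8618, 2432 and 7327. Replicate 2 gave all 3 of these promoter-proximal sites their best rank.

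In the gene body both sites were near the IDR limit. The site at 5083194, 3.9 kb into the gene, had a signal of 167 and ranks of 5840, 6538 and 5265. The site at 5080219, 6.9 kb into the gene, had a signal of 164 and ranked at 2872 in replicate 1 but 10407 in replicate 2. Replicate 3 had its nearest summit 157 bp away, at rank 6467. The replicates therefore did not place this site alike.

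Between 8 and 19 kb upstream stood 8 sites, the strongest of which is the site 9.3 kb upstream given above. The site 8.3 kb upstream (5095346, signal 321) ranked at 3150, 1727 and 1220, and that at 10.1 kb (5097181, signal 199) at 7171, 4261 and 2865. At 12.1 kb (5099197, signal 185) the ranks were 4622 and 4090 in replicates 1 and 2, and replicate 3 had a summit 148 bp away at rank 5218. These flanking sites were all weaker than the site between them. The site 15.5 kb upstream (5102620, signal 419.7) ranked at 1499, 838 and 2231, and that at 16.5 kb (5103573, signal 284) at 3366, 2198 and 2205. At 18.5 kb (5105528, signal 482) the ranks were 1671, 734 and 774. Its neighbour 204 bp away, at 18.7 kb (5105732, signal 235), ranked at 9009, 3173 and 2094. That neighbour had the widest spread of the sites matched in all replicates, with its highest rank number 4.30 times its lowest.

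The far upstream end held 7 sites with signals from 163 to 263. Those at 30.9 kb (5117953, signal 263) and 35.6 kb (5122710, signal 263) ranked at 3233, 3176 and 3870 and at 2695, 2720 and 3203. The pair at 33.0 kb (5120052, signal 163) and 33.7 kb (5120785, signal 236) ranked at 11583, 4384 and 4358 and at 4047, 2472 and 3016. Ranks were even across replicates at 30.9 and 35.6 kb and uneven at 33.0 kb, where replicate 1 stood apart. At 37.9 kb (5124928, signal 184) the ranks were 7876, 2585 and 3897, and at 38.8 kb (5125859, signal 226) they were 6897, 3851 and 1899. The last site, 40 kb upstream (5127062, signal 231), ranked at 3822, 3137 and 3832. It lay 10 bp inside the window and 1025 bp from the start of RabGGTa, which encodes the alpha subunit of the enzyme that prenylates Rab proteins. The first IDR peak outside was 878 bp beyond the edge (signal 317, rank 1967), 137 bp from the RabGGTa start.

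Beyond the 3′ end were 5 sites, 2 of them strong. The site at 5053821, 83 bp from the start of the noncoding gene CR45588 and 33.3 kb from the corto start, had a signal of 512 and ranks of 1362, 731 and 765. The site at 5076354, 10.7 kb from the corto start, had a signal of 351 and ranks of 1759, 1341 and 1726. Replicate 1 placed both lowest. The other 3 were weak. They ranked at 9157, 3078 and 5951 (19.4 kb, 5067695, signal 189), at 8040, 6550 and 16704 (20.3 kb, 5066748, signal 169) and at 5601, 4881 and 5175 (47.8 kb, 5039222, signal 179.6). For the site at 20.3 kb, replicate 3 also had a stronger summit further off, at rank 4077. The outermost site was 1443 bp inside the window, and the next IDR peak was 13202 bp beyond the edge (signal 204, rank 3998).

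In signal the corto sites were ordinary for the IDR list. Their median signal was 233, against 250.3 for all IDR peaks. With the IDR list split by signal into 4 groups of 1436 or 1437 peaks, from strongest to weakest, they numbered 6, 6, 6 and 10. The weakest corto site, 33.0 kb upstream, had pooled rank 5513. The highest pooled peaks of the window that missed the list had ranks 5781, 5867 and 5916, with signals of 157.6, 156.1 and 155.3.

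**Figure D3:**
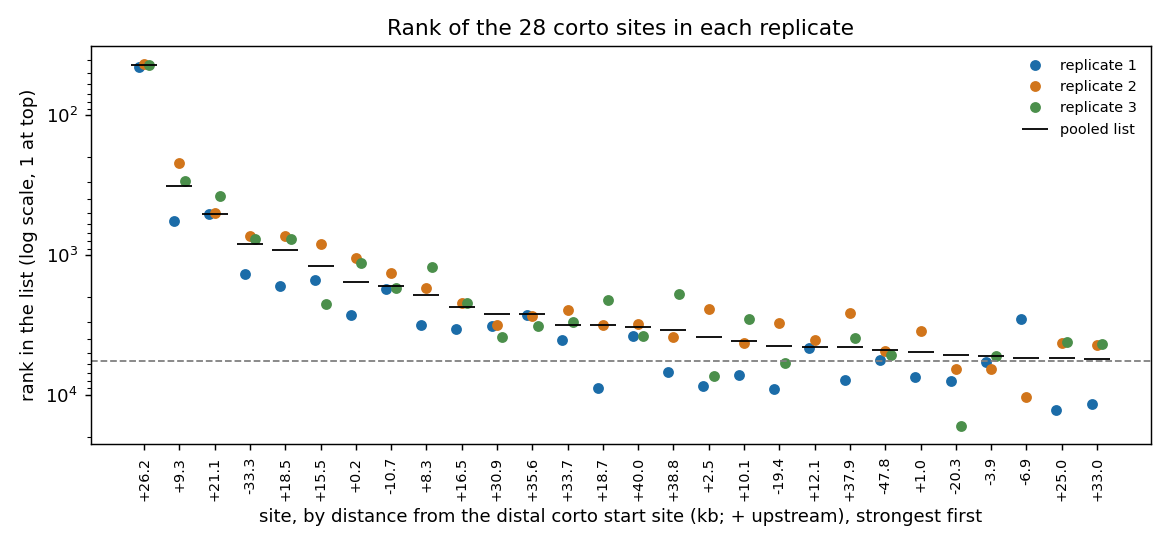
Rank of each of the 28 corto sites (vertical axis, log scale, rank 1 at the top) in replicates 1, 2 and 3 and in the pooled list (bar), with sites ordered by pooled rank and named by distance from the distal corto start site in kb. The dashed line marks rank 5746, the length of the IDR list. The site 26.2 kb upstream has ranks of 43 to 45, while replicate 1 falls below the others at most sites.

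As a group the corto sites recurred in the replicates about as often as other IDR peaks. In all 3 replicate lists 25 of 28 had a summit within 100 bp, against 89.4% of all IDR peaks, and the other 3 had it in replicates 1 and 2 only. Among the 5746 highest peaks of each replicate, 15 of 28 were found in all 3, against 56.7% of IDR peaks, 7 in 2 replicates, 5 in 1 and 1 in none. The order of the sites was similar between replicates. Across the 25 sites matched in all 3, which share libraries and were not drawn independently, Spearman's rho of the ranks was 0.801 for replicates 1 and 2, 0.785 for 1 and 3, and 0.80 for 2 and 3. Across the 5135 IDR peaks matched in all 3, it was 0.738, 0.718 and 0.755. The highest rank number was at least 2 times the lowest at 14 of 25 corto sites, against 45.9% of matched IDR peaks.

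Replicate 1 ranked the corto sites lower than the other replicates did. It gave the lowest place to 19 of 25 matched sites, against 34.8% of IDR peaks. Replicate 2 gave the lowest place to 1 site (26.9% of IDR peaks) and replicate 3 to 5 (38.2%). On a log2 scale, the median rank number in replicate 1, less the mean of the log2 ranks in the other 2, was 0.86 at corto sites and −0.03 over all IDR peaks. For replicate 2 the shift was −0.45 at corto sites and −0.11 over all IDR peaks, and for replicate 3 it was −0.23 and 0.09. These are 3 libraries and the sites share them, so no test was made. Base composition moved with this shift. Across the 5135 IDR peaks its Spearman's rho with GC content was 0.387 for replicate 1, −0.209 for replicate 2 and −0.201 for replicate 3, and across the 25 corto sites 0.256, −0.351 and −0.0971. The part of base composition in the lower ranks of replicate 1 was not tested.

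Each replicate also had high summits in the window with no IDR summit within 100 bp. Among its 5746 highest peaks, replicate 1 had 21 in the window, 4 of them with no IDR site within 100 bp. Replicate 2 had 27, of which 2 had none, and replicate 3 had 28, of which 7 had none. The same share over all top peaks of each replicate was not computed. These counts therefore do not show whether the window is unusual. The highest summits without an IDR site within 100 bp were at 5060862 in replicate 1 (rank 3545), at 5055756 in replicate 2 (rank 3781) and at 5066592 in replicate 3 (rank 4077). None of these 3 had a summit within 100 bp among the top peaks of another replicate. Some of the unmatched summits still lay in IDR intervals: those at 5066592 and 5099345 in replicate 3 did. The replicate 3 summit at 5088270 was the one nearest to the IDR site 1.0 kb upstream. A peak 12.3 kb from the corto start, beyond its 3′ end, was in the top peaks of replicates 1 (rank 5224) and 2 (rank 5388) and was the first pooled peak of the window below the IDR limit.

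Corto sites were richer in G and C than most Gsb-n peaks. Median GC content of the summit windows was 49.0% at the 28 corto sites, from 32.3% to 57.7%, against 36.3% over all IDR peaks, and 23 of 28 were above that median. Windows of the corto region more than 300 bp from an IDR summit and outside transposons (300 windows, the local background) had 44.5%. Intergenic IDR peaks had 38.3%, the hth sites 39.8%, the pum sites 31.8% and the Eip75B sites 34.8%. The surroundings differed less. Windows 1000 bp to either side of the summits had a median of 44.5% at corto and 42.0% over all IDR peaks. The summit was richer in GC than its flanks at 15 of 28 corto sites, against 31.3% of all IDR peaks. That share was 38.2% for intergenic IDR peaks, 39.3% for the hth sites, 21.4% for pum and 35.3% for Eip75B. The strongest corto site had a GC content of 35.8% and was among the 5 that were not above the IDR median. GC content was not used to choose the window, but the sites are neighbours on 1 stretch of DNA, and no test was made.

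The share of corto windows with a homeodomain core was near that of all IDR peaks, and which was higher depended on the window width. All motifs were sought on both strands within 100 bp of the summit. TAATTA was in 4 of 28 corto windows, against 17.3% of all IDR windows and 18.0% of local windows. With 50 bp on each side of the summit it was in 4 (14.3%), against 10.5% of IDR windows, and with 200 bp in 10 (35.7%), against 27.4%. The short dimer was in none (2.58% of IDR windows) and the long dimer in 2, at 19.4 kb beyond the start and 33.0 kb upstream (2.91%). The dimers share TAAT with TAATTA, so 1 stretch can count for more than 1 motif. The windows with TAATTA were those at 6.9 and 19.4 kb beyond the start and at 16.5 and 18.7 kb upstream, none of them among the 5 strongest.

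The paired core GTTCC was in more corto windows than its share of IDR windows. It was in 10 of 28, against 19.6% of IDR windows, but the local background was also high at 27.3%. In narrower windows around the summit, with 50 bp on each side, it was in 5 of 28, against 9.99% of IDR windows, and with 200 bp in 15, against 36.5%. The sites 26.2, 9.3, 18.5 and 15.5 kb upstream and that at CR45588 each held it, so it was in 5 of the 6 strongest windows. Its share among IDR peaks of like strength was not computed. At CR45588 and 18.5 kb upstream the only match lay 91 and 55 bp from the summit. The other paired core, GTCACGC, was in 1 window, 8.3 kb upstream (1.57% of IDR windows).

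GAGA factor and Pho cores are tied to Polycomb response elements. GAGAG was in 8 of 28 windows, against 23.2% of IDR windows and 17.0% of local windows. GCCAT, the core bound by Pleiohomeotic (Pho), the DNA-binding protein that recruits Polycomb complexes, was in 9, against 27.8% and 41.3%. With 50 bp on each side GAGAG was in 6 windows (21.4%), against 11.0% of IDR windows, and GCCAT in 5 (17.9%), against 15.6%. With 200 bp GAGAG was in 14, against 46.0%, and GCCAT in 16, against 50.5%. The promoter window alone held 6 GAGAG and 3 GCCAT matches. Of the remaining motifs, the Zelda core CAGGTA was in 1 window (3.9% of IDR windows), the E-box CANNTG in 19 (58.8%) and the GATA core TTATCA in 4 (16.9%). The promoter elements TATCGATA of DREF (2.63%) and GGTCACAC of M1BP (2.26%) were in none. A match describes these letters and does not show a bound factor.

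**Figure D4:**
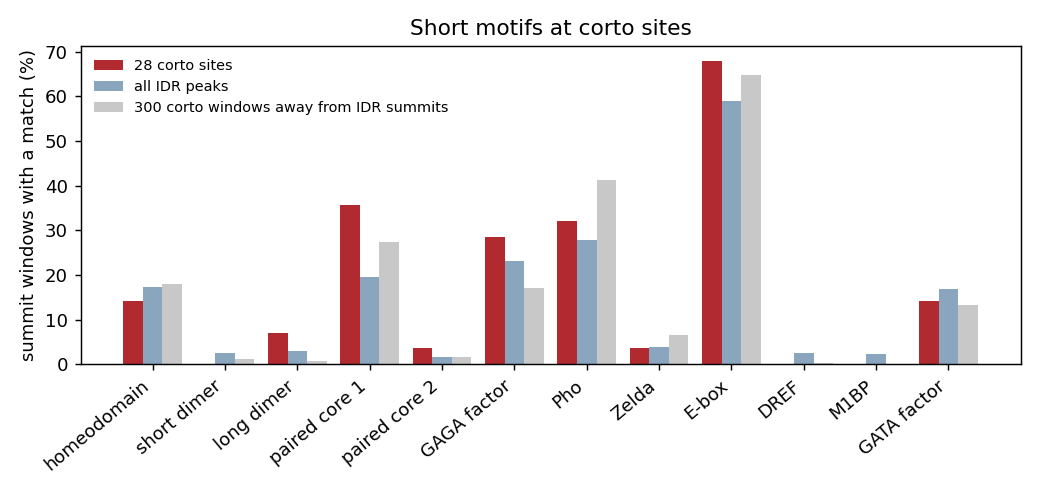
Share of summit windows with at least 1 match (vertical axis, percent) for each of 12 motifs, in the 28 corto sites (red), all 5746 IDR peaks (blue) and 300 windows of the corto region away from IDR summits (grey). Paired core 1 is the GTTCC motif, at 35.7%, 19.6% and 27.3%.

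Corto had the most assigned sites among genes of the Polycomb and trithorax groups. Of 41 listed genes 40 matched the annotation, and 20 of these were the nearest gene of at least 1 IDR summit, against 22.1% of all protein-coding genes. Without corto it was 19 of 39. Corto led with 12 sites, followed by the BTB factor gene pipsqueak (psq) with 7, and by the chromodomain helicase gene kismet (kis) and the histone methyltransferase gene trithorax (trx) with 5 each. Outside this list, the comparison genes had more sites than corto by the same measure: hth 23, pum 15 and Eip75B 15. The GAGA factor gene Trl had 4, the strongest with a signal of 1950.3, and Polycomb (Pc) had 1, with a signal of 189. Peak strength did not follow peak number: the strongest site nearest to corto had a signal of 802, that of trx 1403 and that of psq 331. The list mixes genes with long and short territories, and corto was chosen for its number of peaks, so its place is no separate result.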

How the data were processed

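Chromatin immunoprecipitation of Gsb-n-GFP was analysed from 5 deposited peak lists on dm6: 1 for each of 3 replicates, 1 pooled and 1 of optimal IDR peaks, per the deposited notes. No header or label used here names the aligner, the peak caller or the cutoff behind the IDR list. The deposited signal column holds the authors' peak signal on a scale that may differ between lists, so it was used for ranks and levels within a list only. The deposited −log10 q-value column has many ties at its maximum, and no result uses it. The deposited summit offset column gave the summits. All 5746 IDR peaks are in the pooled list, so these lists are not independent. Peak counts are limited by list length, and depth is unknown.

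Genes came from Ensembl release 115 and sequence from the RefSeq copy of release 6; no peak ran beyond an arm's end. Summits within 100 bp counted as 1 site, and the top peaks of a replicate were its 5746 highest. Sites were assigned to the nearest protein-coding TSS. Python 3.11.15, pandas 2.3.3, numpy 2.4.6 and scipy 1.17.1 were used, and matching, window counts and motif search were tested on simulated data. Named genes are corto, protein-coding genes in the window, hth, pum, Eip75B, Trl, Pc, trx and the listed genes with most peaks. RabGGTa, plh, noc, the noncoding genes and the transposons were named after their values were seen. The members and lists were chosen with earlier results of these data known. No p-value was computed, since the study has 1 group and the sites were chosen on these lists.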

Additional observations from a re-analysis of the deposited data

How the results depend on the processing

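The number of peaks near corto follows the window and the threshold. With 20 kb, 10 kb and 0 kb on each side, IDR peaks numbered 16, 8 and 2 in place of 28. Pooled peaks numbered 56, 26 and 9 in place of 98. With 80 kb the numbers were 34 IDR and 143 pooled peaks. Peaks above each list's median signal gave 12 IDR and 61 pooled peaks, and the top peaks of the replicates a mean of 25.3 in place of 92.3. Leaving out 1 replicate gave means from 90 to 94.5. Without 1 replicate the mean rank of the strongest site ranged from 43.5 to 44.5. Sites in all replicate lists ranged from 25 to 28 without 1 replicate (25 with all 3), and sites in the top peaks of all from 15 to 21 (15). Leaving out a replicate cannot lower these 2 counts, so their ranges do not measure stability. With summits matched within 50 bp the 2 counts were 18 and 10, and within 200 bp 27 and 16. With intervals that overlap they were 28 and 17. With a shorter list of top peaks per replicate, 8 sites were in all 3. The share of genes with fewer IDR peaks than corto was 99.98% as reported. With 80 kb on each side it was 99.95%, and 6 genes had more. With 20, 10 and 0 kb it was 99.8%, 99.0% and 95.2%. It was 99.99% per kb and 99.8% in the top peaks of replicate 1, where 23 genes had more. With protein-coding TSSs only, 1 corto summit was within 500 bp. Among IDR peaks above the median signal, an alternative chosen after seeing the data, 12 of the 40 Polycomb and trithorax genes were bound in place of 20, against 14.0% of all protein-coding genes in place of 22.1%. Of 24 motif counts in wider or narrower windows, 9 differed from the reported count by over 1.5 times or changed to or from 0. A wider window can only gain matches and a narrower one can only lose them, so these changes do not measure stability. Ranking by −log10 q was not run, because 5051, 5541 and 2791 peaks tie at the maximum in replicates 1, 2 and 3. No paired analysis was possible because the study has 1 group.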
